A study of Mus musculus with 4 samples.

Results

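ChIP-Seq peaks of the glucocorticoid receptor (GR) and of E2A were examined at 10 mouse liver genes of the endoplasmic reticulum (ER) stress response and the CRE-binding factors: Atf3, Atf4, Atf5, Atf6, Xbp1, Ddit3, Hspa5, Herpud1, Creb3l3 and Trib3. The genes were listed by name. A peak was taken into account when the deposited annotation named one of the genes for it or when it lay within 50 kb of a transcription start site of one of them. Of 17545 peaks in all samples, 82 lay within 50 kb of a start site, 53 were named for one of the genes, and 84 met either condition. Merged across samples, the peaks within 50 kb formed 37 regions of 10755.

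GR and E2A were each precipitated from livers of wild-type (E47+/+) male C57BL/6J mice in 2 biological replicates, which gave 4 samples. The livers were collected at ZT 10, that is 10 h after lights on, from chow-fed mice, and the methods describe animals 10 to 16 weeks of age. The labels call all mice untreated, whereas a supplement of the study calls the livers treated with dexamethasone, a synthetic GR ligand. Both groups therefore shared genotype, sex and time point and differed in the antibody. They also differed in depth, since the authors downsampled GR libraries to 18 mio and E2A libraries to 22 mio read pairs. The E2A antibody recognizes the products of Tcf3, which include E47, so that E12 and E47 are not told apart. The descriptions of both E2A samples name a GR ChIP, and the second also names E47-/- mice. Their titles, antibody and genotype say E2A in E47+/+ and were followed. By the labels of treatment and genotype, no treated or mutant mice were used here, and no control ChIP was used. The sources do not settle the conflicts over treatment and over the descriptions of the E2A samples.

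The unfolded protein response is set off by misfolded protein in the ER and runs through 3 sensors. IRE1, encoded by Ern1, splices the mRNA of Xbp1, PERK raises translation of Atf4, and ATF6 is moved to the Golgi and cleaved to a transcription factor. The factors act through short DNA elements in the promoters of chaperone and degradation genes, such as the ER stress response elements ERSE and ERSE-II and the C/EBP-ATF response element CARE. CREB-related factors bind the cAMP response element CRE. GR is activated by glucocorticoids and binds the glucocorticoid response element (GRE), and E2A proteins are basic helix-loop-helix factors that bind E-boxes. In liver, this response is known for its part in protein secretion, lipid metabolism and fasting.

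The lists held 4291 and 7334 peaks for GR replicates 1 and 2, and 4028 and 1892 for E2A replicates 1 and 2. Since they give positions only, without heights or counts of reads, the depth behind a peak is unknown and a missing peak only means that none was called. GR peaks lay within 50 kb of 8 of 8 hepatocyte marker genes (Alb, Apoa1, Apob, Ttr, Serpina1a, Tat, Fgb, Hnf4a). They also lay within 50 kb of 5 of 13 marker genes of leukocytes, Kupffer, bile duct, endothelial and stellate cells. Of all genes with a curated RefSeq mRNA, 45.0% had such a GR peak, so that 5 of 13 is near the background. At the promoter these counts were 8 of 8 and 1 of 13, the latter being Sox9, against 21.7% of all genes. E2A peaks lay within 50 kb of 8 of the 8 and 3 of the 13 genes (Pax5, Cd3e and Des), against 29.5% of all genes. At the promoter, E2A peaks were found at 5 of the 8 and 0 of the 13 genes, against 9.37% of all genes. A count of 0 among 13 is close to that background.

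Every one of the 10 genes had a GR peak within 50 kb in at least 1 replicate, and 7 had an E2A peak. Over all 21000 genes with a curated RefSeq mRNA, 45.0% had such a GR peak and 29.5% such an E2A peak. The 7 genes with an E2A peak, Atf3, Atf5, Xbp1, Ddit3, Herpud1, Creb3l3 and Trib3, also had a GR peak that shared at least 1 bp with it, which 20.0% of all genes had. Atf4, Atf6 and Hspa5 had GR peaks in replicate 2 only and no E2A peak, so that GR peaks were found at 7 genes in GR replicate 1, the sample with fewer GR peaks. These comparisons with all genes are descriptions without a test, since the list was drawn up with earlier results of these data known. The 21000 genes include those that liver does not express, and the part of expression level was not tested.

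At the promoter, meaning within 1 kb of a start site, GR peaks were found at 6 of the 10 genes, against 21.7% of all genes. E2A peaks were found at the same 6 genes, against 9.37% of all genes. Atf3, Atf5, Xbp1, Ddit3, Herpud1 and Creb3l3 thus had both, which held for 6.80% of all genes. A region called in all 4 samples lay at the promoters of 3 genes, Atf3, Herpud1 and Creb3l3, against 1.13% of all genes. These 3 genes were also the ones with such a region anywhere within 50 kb, against 4.62%. When a peak had to be called in both replicates of its ChIP, GR peaks were found at 5 promoters, E2A peaks at 4 and both at 3. The shares of 21.7%, 9.37% and 6.80% count a peak in either replicate, and shares of all genes under the stricter rule were not computed. Atf4, Atf6, Hspa5 and Trib3 had no promoter peak in any of the 4 samples.

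**Figure D1:**
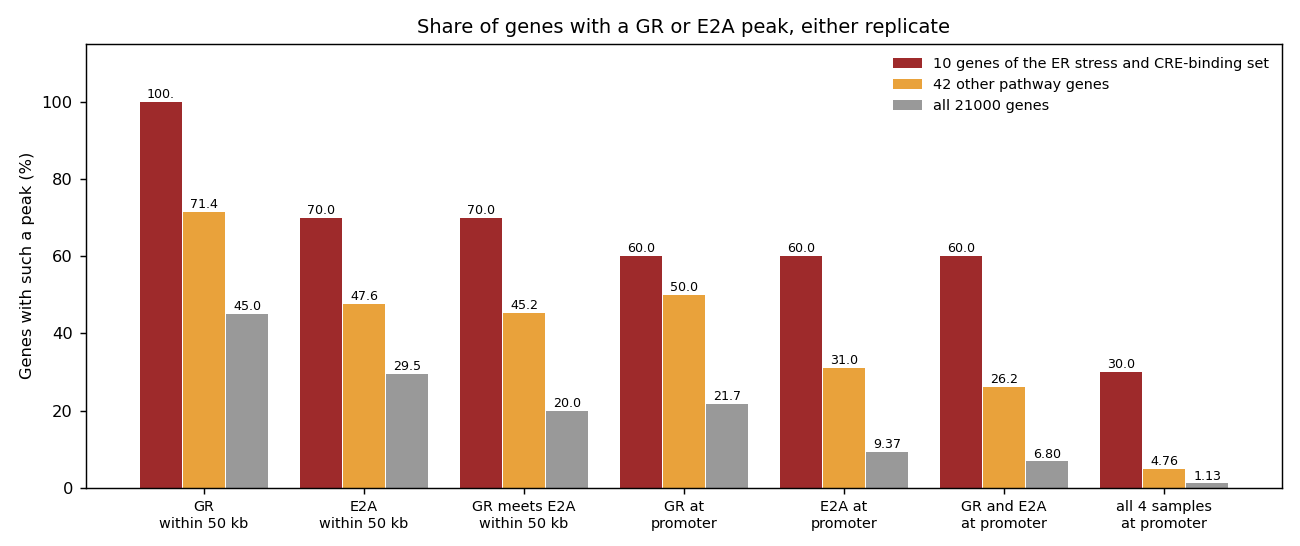
Share of genes, in percent, with a called peak in at least 1 replicate, for the 10 ER stress and CRE-binding factor genes, 42 other genes of the pathway and all 21000 genes. The last group of bars requires 1 merged region called in all 4 samples. In each of the 7 measures the bar of the 10 genes is the tallest, for instance at promoters with both peaks, with 6 of 10 genes against 6.80% of all genes.

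The 4 samples had 21 and 30 GR peaks and 19 and 12 E2A peaks within 50 kb of the genes. Both GR samples were above both E2A samples, by 10 peaks on average (two-sided exact permutation test over samples, p = 0.333, the smallest p that 2 against 2 samples allow). The difference was 5.5 peaks without GR replicate 2, 6.5 without E2A replicate 2 and 3.5 for peaks within 10 kb. Per 1000 peaks of the sample, the values were 4.89 (95% Wilson interval 3.20 to 7.47) and 4.09 (2.87 to 5.83) for GR and 4.72 (3.02 to 7.36) and 6.34 (3.63 to 11.1) for E2A. On this scale the mean of E2A was the higher, and GR minus E2A was -1.04 (exact permutation p = 0.667). The samples interleaved, since E2A replicate 1 lay between the GR replicates and only E2A replicate 2 lay above both. The order of the 4 samples in peaks near the genes was the order of their total numbers of peaks. The intervals cover counting error only.

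Of the 37 regions, 20 were called in both ChIPs (54.1%), against 24.7% of all regions. Only GR was called in 15 regions (40.5%, against 56.7%) and only E2A in 2 (5.41%, against 18.6%). Both GR replicates had called 15 regions (40.5%, against 25.5%), both E2A replicates 7 (18.9%, against 10.3%) and all 4 samples 5 (13.5%, against 4.44%). A single sample had called 14 regions (37.8%, against 58.7%). Herpud1 held 9 of the 37 regions, and 7 of these were called in both ChIPs. Around the other 9 genes 13 of 28 regions were called in both ChIPs (46.4%).

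When GR and E2A regions were merged separately, 21 of 36 GR regions near the genes met an E2A peak (58.3%, 95% Wilson interval 42.2 to 72.9%), against 30.7% of all GR regions. In the other direction, 21 of 23 E2A regions met a GR peak (91.3%, 73.2 to 97.6%), against 58.1% of all E2A regions. Both intervals treat regions as independent, although several lie at the same gene. They are therefore no test against the share of all regions. The share of GR regions depended on E2A replicate 1. Without it the share was 27.8% near the genes and 13% of all GR regions. Where 2 samples had 1 peak each in a region, the peak centres of the GR replicates were a median of 64.2 bp apart in 14 regions, and those of the E2A replicates 159 bp apart in 6 regions. From GR replicate 1 the median was 112 bp to E2A replicate 1 in 11 regions and 177 bp to E2A replicate 2 in 6 regions. From GR replicate 2 it was 117 bp to E2A replicate 1 in 14 regions and 246 bp to E2A replicate 2 in 8 regions. Over all regions these 6 medians were 58.5, 59.2, 79.0, 77.8, 102 and 101 bp. The lists give no summits, so that the centre of a wide peak need not be its highest point.

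**Figure D2:**
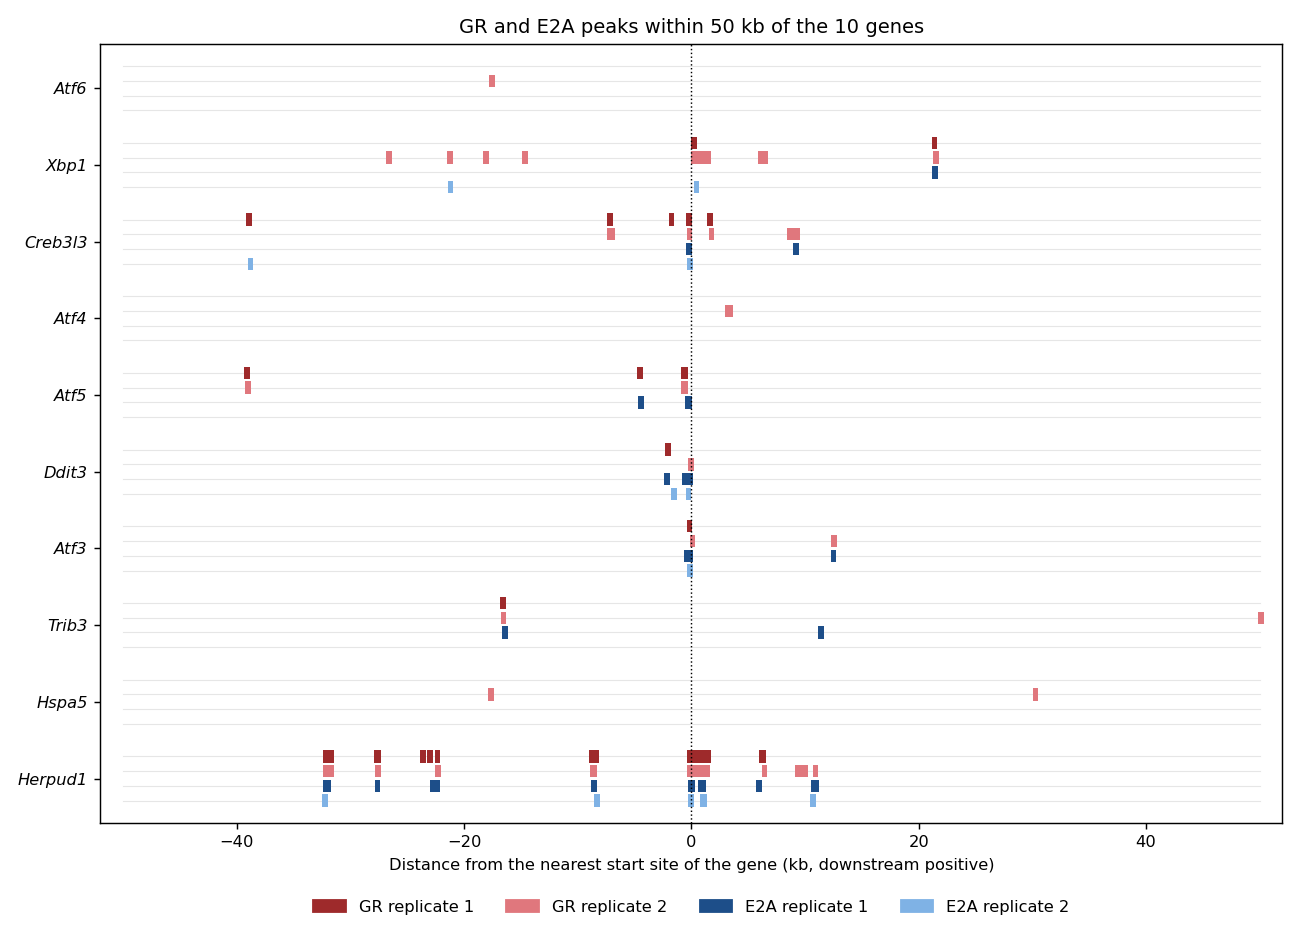
Called peaks within 50 kb of each gene, 1 line per sample in the order of the legend, plotted by distance from the nearest start site in kb with downstream positive. Peaks are drawn at least 0.5 kb wide. Herpud1 carries 29 of the 82 peaks, whereas Atf4, Atf6 and Hspa5 carry 1, 1 and 2, all from GR replicate 2.

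Herpud1, an ER membrane protein of the degradation machinery and a classical target of the response, had more called peaks than any of the other genes. It lies on the plus strand of chromosome 8 with its start site at 94386429 (mm10), and had 8 peaks within 50 kb in each GR replicate and 8 and 5 in E2A replicates 1 and 2. At the promoter, GR was called as a single wide peak, 94386087 to 94388129 (2043 bp) in replicate 1 and 94386042 to 94388114 (2073 bp) in replicate 2. E2A was called there as a pair of narrower peaks in each replicate. The first covered the start site, at 94386128 to 94386710 and 94386105 to 94386707, and the second lay in the first intron, at 94387043 to 94387734 and 94387150 to 94387806. All 4 E2A peaks lay inside both GR peaks, and the peaks over the start site had nearly the same edges in both replicates.

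The RefSeq promoter window of Herpud1, 250 bases before to 50 after the start site, is shown because peaks of all 4 samples covered its elements. Capitals mark an ERSE-II (ATTGG and CCACG 1 base apart) at -52 to -42 and a CARE core (TGATGNAA, here on the minus strand) at -112 to -105, and both lay inside peaks of all 4 samples.
Herpud1, chr8:94386179-94386478 (plus strand): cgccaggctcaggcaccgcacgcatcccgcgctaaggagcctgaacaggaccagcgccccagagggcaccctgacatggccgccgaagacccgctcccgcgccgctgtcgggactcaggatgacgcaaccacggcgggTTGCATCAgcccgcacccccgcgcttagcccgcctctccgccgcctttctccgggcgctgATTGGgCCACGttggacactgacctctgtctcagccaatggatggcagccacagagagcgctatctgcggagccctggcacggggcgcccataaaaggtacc
Of all 32851 promoter windows of this length, 0.0365% hold an ERSE-II and 3.97% a CARE core. Unlike the ERSE-II, the CARE core was added to the search after the sequences had been read.

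Further regions of Herpud1 were called in all 4 samples at 2 upstream places. The nearer one was intergenic, 8094 bp upstream, at 94377392 to 94378335 in GR replicate 1. The other lay 31433 bp upstream in an intron of Slc12a3, the renal sodium chloride cotransporter gene, at 94354029 to 94354996 in GR replicate 1. Between them, at 27335 and 22079 bp upstream, both GR replicates and E2A replicate 1 had called peaks. Downstream, a region 5812 bp from the start site lay over exonic and intronic sequence of Herpud1. Here the E2A replicate 1 peak (94392241 to 94392548) touched the GR replicate 1 peak (94392405 to 94392983) but not that of GR replicate 2 (94392638 to 94393073). The only GRE without mismatch in the 37 regions lay here at 94392802 to 94392816, inside both GR peaks and outside the E2A peak. It is shown in a window of 200 bases with the half-sites in capitals.
Herpud1, chr8:94392710-94392909 (plus strand): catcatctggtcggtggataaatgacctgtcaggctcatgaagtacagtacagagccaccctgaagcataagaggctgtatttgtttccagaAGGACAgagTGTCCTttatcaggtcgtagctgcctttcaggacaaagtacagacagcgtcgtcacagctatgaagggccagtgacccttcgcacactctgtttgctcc
Another region 10398 bp downstream was called in GR replicate 2 and both E2A replicates. It held the CRE TGACGTCA at 94397205 to 94397212, inside the peaks of these 3 samples.

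**Figure D3:**
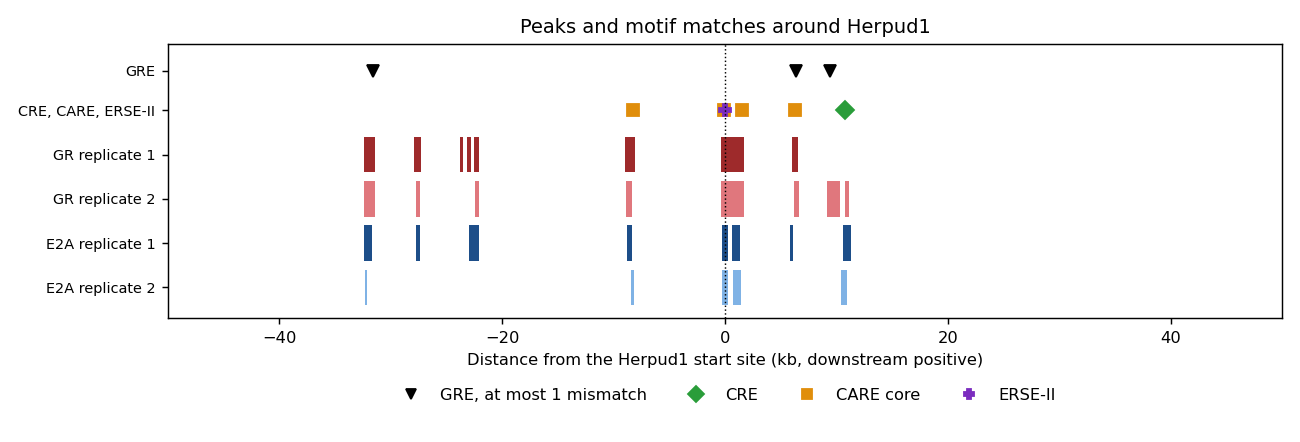
Called peaks and motif matches around Herpud1 by distance from its start site in kb. Markers show GRE matches with at most 1 mismatch in the top row, and CRE, CARE core and ERSE-II matches in the row below, searched inside called regions only. The 3 regions called in all 4 samples lie at the start site and 8094 and 31433 bp upstream, and the GRE without mismatch lies under the GR peaks at 6380 bp.

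Atf3, a stress-induced repressor of the CRE-binding family, had a promoter peak in all 4 samples. The gene lies on the minus strand of chromosome 1 with its start site at 191183333. GR was called at 191183326 to 191183650 in replicate 1 and 191183013 to 191183450 in replicate 2. E2A was called at 191183149 to 191183943 and 191183248 to 191183600. All 4 peaks covered the start site. The GR replicate 1 peak lay almost wholly upstream of it, whereas that of replicate 2 lay mostly downstream. The Atf3 promoter window holds a CRE variant (TGACGTAA) at -10 to -3 and a CARE core at -110 to -103, both on the minus strand of the window and both inside peaks of all 4 samples.
Atf3, chr1:191183284-191183583 (minus strand): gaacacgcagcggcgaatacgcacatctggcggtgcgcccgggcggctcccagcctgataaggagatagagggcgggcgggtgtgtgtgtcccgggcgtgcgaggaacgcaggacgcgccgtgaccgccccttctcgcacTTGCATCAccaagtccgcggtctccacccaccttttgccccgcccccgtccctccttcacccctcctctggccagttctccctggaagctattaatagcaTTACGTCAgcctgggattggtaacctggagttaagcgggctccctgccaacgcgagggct
The CRE variant occurs in 0.499% of all promoter windows. Like the CARE core, it was added to the search after the sequences had been read, so that this share is a description only. A second CARE core, 63 bp downstream of the start site, lay inside the peaks of GR replicate 2 and both E2A replicates. At 12332 bp downstream, GR replicate 2 and E2A replicate 1 had peaks in the 3' UTR of Fam71a, and an intergenic E2A replicate 1 peak 71150 bp upstream was also named for Atf3.

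Creb3l3 encodes CREBH, a liver factor held in the ER membrane and released by cleavage. It lies on the minus strand of chromosome 10 and has 2 curated start sites. The peaks of all 4 samples lay at the internal one (81092591), at 81092569 to 81093028 and 81092502 to 81092989 for GR and at 81092582 to 81092965 and 81092548 to 81092894 for E2A. No peak lay within 1 kb of the upstream start site (81098872). The deposited annotation places the 4 peaks in a 5' UTR, so that they were promoter peaks by the RefSeq start site and not by that annotation. GR and E2A centres differed by 8.5 bp here, the smallest offset among the 20 regions called in both ChIPs. The window at the internal start site, where the 4 peaks overlap, contained no match to the searched elements.
Creb3l3, chr10:81092542-81092841 (minus strand): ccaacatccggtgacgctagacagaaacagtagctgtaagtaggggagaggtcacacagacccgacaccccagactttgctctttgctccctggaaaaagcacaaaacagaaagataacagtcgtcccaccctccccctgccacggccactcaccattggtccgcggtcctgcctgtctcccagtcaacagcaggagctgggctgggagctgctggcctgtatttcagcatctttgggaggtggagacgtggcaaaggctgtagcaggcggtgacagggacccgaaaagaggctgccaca
Other peaks near Creb3l3 were mostly GR. Distances here run from the nearer start site, the internal one for downstream peaks and the upstream one (81098872) for Map2k2 and Zbtb7a. An intronic region 1465 bp downstream and the Map2k2 promoter 6738 bp upstream were called in both GR replicates and in no E2A sample. A peak at the promoter of Zbtb7a, 38621 bp upstream, was called in GR replicate 1 and E2A replicate 2, and one beside Thop1 8408 bp downstream in GR replicate 2 and E2A replicate 1.

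Xbp1, the factor made active by IRE1 splicing, had promoter peaks in both GR replicates and in E2A replicate 2. It lies on the plus strand of chromosome 11 with its start site at 5520641. The GR peaks spanned 5520594 to 5521170 (577 bp) and 5520577 to 5522387 (1811 bp), and the E2A peak spanned 5520930 to 5521237 (308 bp). E2A replicate 1 had no peak there. An ERSE (CCAAT and CCACG 9 bases apart) lay at 5520906 to 5520924, downstream of the start site, inside both GR peaks and ending before the first base of the E2A peak. It is shown in capitals in a window of 200 bases.
Xbp1, chr11:5520816-5521015 (plus strand): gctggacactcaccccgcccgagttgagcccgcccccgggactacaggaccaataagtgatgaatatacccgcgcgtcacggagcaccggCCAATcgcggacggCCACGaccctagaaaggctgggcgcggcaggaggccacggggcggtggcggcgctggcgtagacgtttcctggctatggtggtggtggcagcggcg
Only 0.102% of the 10755 regions held an ERSE, 11 regions in all. GR replicate 2 had 4 further intergenic peaks between 14494 and 26489 bp upstream of Xbp1. One of them, 21047 bp upstream, overlapped a peak of E2A replicate 2 and held a CARE (TGATGNAAT) at 5499503 to 5499511 inside both peaks. At 21239 bp downstream, the Ccdc117 promoter was called in both GR replicates and E2A replicate 1.

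Ddit3 encodes CHOP, the pro-apoptotic C/EBP factor downstream of PERK and ATF4. It lies on the plus strand of chromosome 10 with its start site at 127290793. Promoter peaks were called in GR replicate 2 (127290517 to 127291044) and both E2A replicates (127290013 to 127290980 and 127290380 to 127290732), but not in GR replicate 1. Of the 6 promoters with both ChIPs this was the one where E2A was called in both replicates and GR in 1. A CARE at 127290491 to 127290499, upstream of the start site, lay inside both E2A peaks and before the first base of the GR peak. It stands in capitals, on the opposite strand, in the window shown.
Ddit3, chr10:127290396-127290595 (plus strand): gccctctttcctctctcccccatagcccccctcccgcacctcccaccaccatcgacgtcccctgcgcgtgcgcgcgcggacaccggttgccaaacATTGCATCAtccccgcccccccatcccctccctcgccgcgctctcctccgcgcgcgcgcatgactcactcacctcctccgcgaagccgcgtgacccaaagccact
GR replicate 1 and E2A replicate 1 shared a region 1911 bp upstream at the Mbd6 promoter. The start site of Mbd6 also lay within 1 kb of the E2A replicate 1 peak at Ddit3, so that this peak cannot be given to a single gene.

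Atf5, an activating factor that is translated under stress like Atf4, lies on the minus strand of chromosome 7 with its start site at 44815658. GR was called 321 and 284 bp upstream of it, at 44815979 to 44816555 and 44815942 to 44816599. E2A was called over the start site in replicate 1 (44815583 to 44816250), and E2A replicate 2 had no peak near Atf5. A second RefSeq promoter window of Atf5 has its start site at 44816658, which was not among the start sites used. All these peaks lay downstream of 44816658, and the distances given here run from 44815658. The deposited annotation names Gm21948 for these peaks, and Il4i1b and Nup62 also start within 1 kb of them. At 4158 bp upstream, GR replicate 1 and E2A replicate 1 shared an intronic region, named for Atf5.

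**Figure D4:**
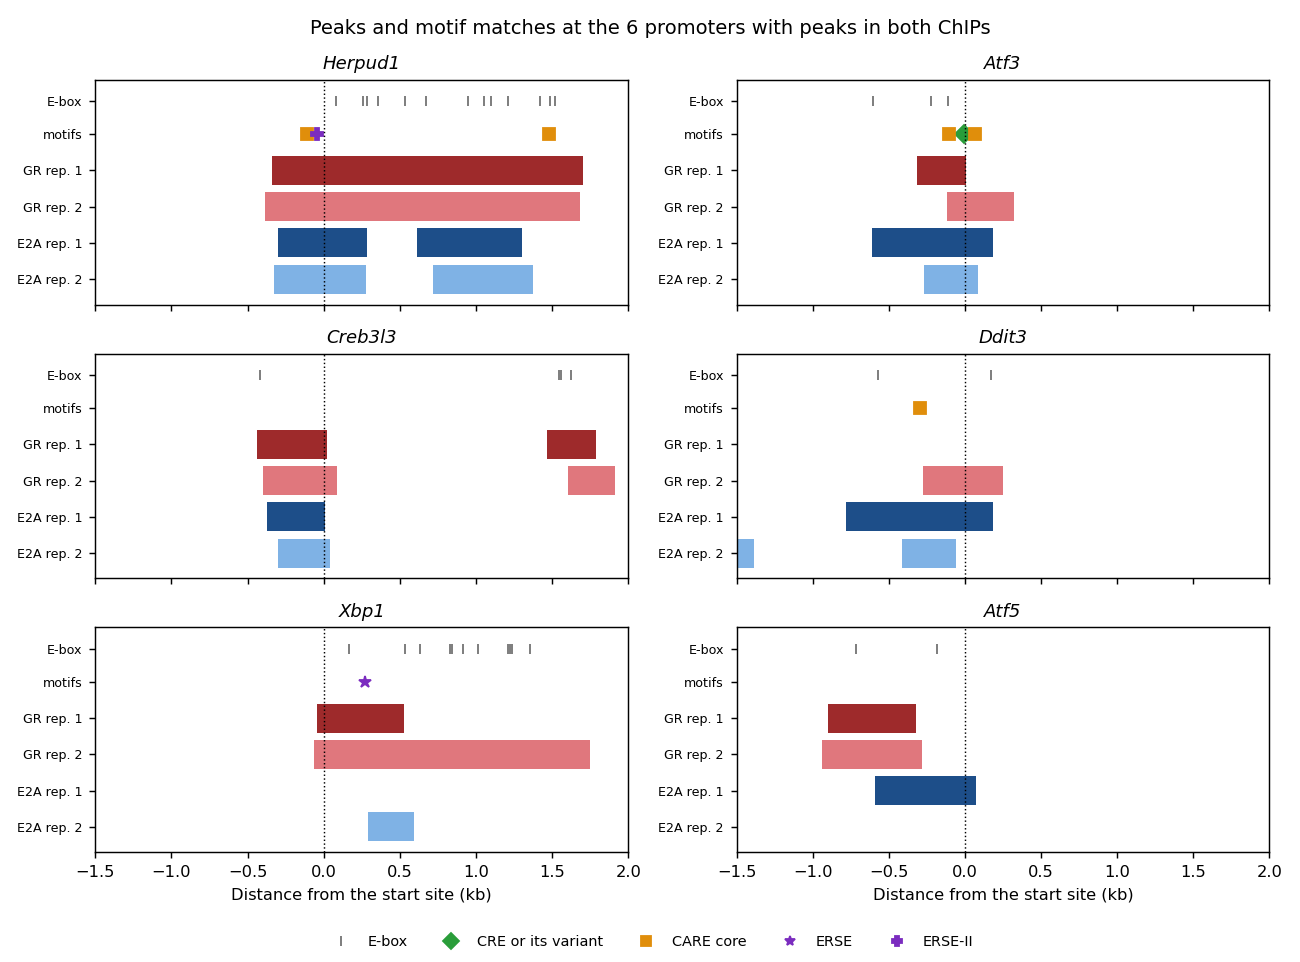
Called peaks from 1.5 kb upstream to 2 kb downstream of the start site of the 6 genes with GR and E2A promoter peaks, 1 line per sample, with motif matches inside called regions above. Herpud1, Atf3 and Creb3l3 have peaks in all 4 samples, Ddit3 lacks GR replicate 1, Xbp1 lacks E2A replicate 1 and Atf5 lacks E2A replicate 2. The ERSE of Xbp1 lies left of the E2A peak and the CARE core of Ddit3 left of the GR peak.

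Trib3, a pseudokinase induced by ATF4 and CHOP that is known to inhibit Akt signaling, had no promoter peak. It lies on the minus strand of chromosome 2 with its start site at 152344060. Its promoter window holds a CARE core at 14 to 21, downstream of the start site and covered by no peak. A region 16248 bp upstream, in an intron of Gm14164, was called in GR replicates 1 and 2 (152360410 to 152360856 and 152360433 to 152360743) and E2A replicate 1 (152360308 to 152360653). It held 6 E-boxes and a GRE with 1 mismatch at 152360598 to 152360612, inside the peaks of these 3 samples, and it is shown because no other GRE with at most 1 mismatch in the 37 regions lay under peaks of both ChIPs. Capitals mark its half-sites.
Trib3, chr2:152360506-152360705 (minus strand): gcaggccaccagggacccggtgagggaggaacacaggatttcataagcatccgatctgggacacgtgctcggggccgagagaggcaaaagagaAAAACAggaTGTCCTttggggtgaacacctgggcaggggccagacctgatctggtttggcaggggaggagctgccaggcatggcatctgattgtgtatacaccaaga
E2A replicate 1 alone had a peak at the Rbck1 promoter 11196 bp downstream. A GR replicate 2 peak at the Tbc1d20 promoter, 49965 bp downstream, was the outermost peak inside the limit of 50 kb. Among the next inside was a peak 38786 bp away from Creb3l3. The first outside were at 53783 bp (Trib3), 53885 bp (Hspa5) and 54179 bp (Atf5).

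Hspa5, which encodes the ER chaperone BiP, had no called peak in any sample at its promoter. The gene lies on the plus strand of chromosome 2 with its start site at 34772090. Its promoter window holds an ERSE at -65 to -47, marked in capitals, and is shown for comparison with Herpud1 and Xbp1.
Hspa5, chr2:34771840-34772139 (plus strand): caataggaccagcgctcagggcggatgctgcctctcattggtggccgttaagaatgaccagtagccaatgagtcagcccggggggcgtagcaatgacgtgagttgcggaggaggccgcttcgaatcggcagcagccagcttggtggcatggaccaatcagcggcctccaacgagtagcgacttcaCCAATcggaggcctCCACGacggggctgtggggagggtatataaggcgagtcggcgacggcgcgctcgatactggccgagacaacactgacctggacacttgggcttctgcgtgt
Of all promoter windows, 0.119% hold an ERSE. Both peaks within 50 kb of Hspa5 came from GR replicate 2, at the Gapvd1 promoter 17424 bp upstream and in an exon of Rabepk 30074 bp downstream (34802164 to 34802586). The Rabepk peak held a CRE, a CRE variant and a CARE core.

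Atf4, the factor translated when PERK is active, had a single peak, 2978 bp downstream of its start site (chromosome 15, plus strand, 80255184), in GR replicate 2 (80258162 to 80258861). Atf6, the membrane-bound sensor (chromosome 1, minus strand, start site 170867771), had a GR replicate 2 peak within 50 kb, 17343 bp upstream at the promoter of Dusp12. An E2A replicate 1 peak in a late intron of Atf6, 105542 bp downstream of its start site, was named for the gene and lay outside the 50 kb. None of the 3 genes without E2A peaks within 50 kb, Atf4, Atf6 and Hspa5, had a GR peak in both replicates. Only 25.5% of all regions were called in both GR replicates, and the share of all genes was not computed. The count can thus not be read as particular to these genes.

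Motifs were counted in the 37 regions as matches on either strand, and the shares are descriptions without a test. The regions near the genes were wider than the rest, with a median of 527 bp against 417 bp. A GRE (the half-sites RGRACA and TGTYCY with 3 bases between and at most 2 mismatches) was found in 12 regions (32.4%) and in 30.4% of all regions. With at most 1 mismatch there were 4 such regions (10.8%, against 7.28%). All 4 of these were called in GR replicate 2, at Herpud1 and Trib3. All but the Herpud1 region 9102 bp downstream were also called in GR replicate 1. An E-box (CANNTG) was found in 31 regions (83.8%, against 82.1%) and in the central 200 bp of 18 (48.6%, against 56.6%). The E-box CACGTG was found in 5 (13.5%, against 12.5%). For GRE and E-boxes the shares near the genes were thus close to those of all regions.

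A CRE, CARE, ERSE, ERSE-II or the XBP1 element UPRE (TGACGTGG) was found in 6 of the 37 regions (16.2%), against 6.82% of all regions. CRE was found in 2 regions (against 3.0% of all), CARE in 2 (2.56%), ERSE in 1 (0.102%), ERSE-II in 1 (0.0744%) and UPRE in 0 (1.21%). In the central 200 bp the count of all these was 3 (8.11%, against 3.41%). The CRE variant and the CARE core were added after the sequences had been read. With them, 10 regions had a match (27.0%, against 12.7%), and the CARE core alone was found in 8 (21.6%, against 7.53%). Overlaps among the elements are counted once per region, and each CARE also contains a CARE core.

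Among 42 other genes of the response and of the CRE-binding family, 30 had a GR peak within 50 kb (against 45.0% of all genes), 20 an E2A peak (29.5%) and 19 a GR peak that met an E2A peak (20.0%). Promoter peaks were called at 21 for GR (against 21.7% of all genes), at 13 for E2A (9.37%) and at 11 for both (6.80%). The 11 genes were Ern1, Mbtps1, Pdia3, Pdia4, Calr, Canx, Manf, Ppp1r15a, Ppp1r15b, Crem and Atf1. Of 13 genes for ER chaperones and folding enzymes, 9 had a GR promoter peak and 5 also an E2A promoter peak, namely the disulfide isomerases Pdia3 and Pdia4, the lectin chaperones Calr and Canx, and Manf. Of 7 genes of ER-associated degradation, 3 had a GR promoter peak (Edem1, Sel1l and Syvn1) and 0 an E2A promoter peak. With 9.37% of all genes having one, a count of 0 among 7 is close to the background.

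Of 8 genes of the PERK arm and ATF4 targets, 4 had a GR promoter peak (against 21.7% of all genes) and 2 an E2A promoter peak (9.37%), Ppp1r15a and Ppp1r15b, which encode the phosphatase subunits that reverse PERK signaling. Of 5 genes for sensors and processing proteases, 2 had both (against 6.80% of all genes), Ern1 and Mbtps1, the latter encoding the site-1 protease that cleaves ATF6. Of 9 CRE-binding factors and coactivators, 3 had a GR promoter peak (Creb1, Crem and Atf1) and 2 of these also an E2A promoter peak. A promoter region called in all 4 samples was found at 2 of the 42 genes (against 1.13% of all genes), Ppp1r15a and Crem. At Ppp1r15a the merged GR peaks spanned 45525973 to 45526467 and the merged E2A peaks 45526002 to 45526596, both over its start site at 45526268 on chromosome 7. At the other 10 promoters with both ChIPs, E2A replicate 2 contributed a peak at Crem and Atf1 only. Without E2A replicate 1, 11 of the 42 genes had an E2A peak within 50 kb. The share of all genes for E2A replicate 2 alone was not computed.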

How the data were processed

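The authors aligned paired reads of the GR and E2A ChIPs to mm10 with BWA-MEM (0.7.13), removed duplicates with Picard (1.119), kept uniquely mapped pairs, downsampled them and called peaks in each sample with MACS2 (2.1.0; versions per the labels). The deposited values used are peak positions in bp with the nearest gene and its feature. They are not normalized, and the annotation tool, peak threshold and control are not given in the sources used here. BED files with the same peaks were not used. GR replicates are numbered by the sample titles, which is opposite to the deposited file names.

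Start sites were those of curated RefSeq mRNAs (GRCm38.p6, the assembly of mm10), and distances run to the nearest peak edge. Peaks that shared at least 1 bp were merged. Promoter windows came from RefSeq for 9 of the 10 genes. Motifs were searched with Python 3.11.15, NumPy 2.4.6, pandas 2.3.3 and pysam 0.24.0. Wilson intervals came from SciPy 1.17.1. The code was tested on simulated data. The single test across samples was an exact permutation test. The alternatives changed the distance, the promoter definition, the overlap, the replicates required or used, the width limit and the motif window. The named genes are the 10 genes, list genes with GR and E2A promoter peaks that share a base or with a promoter peak in all 4 samples, genes the annotation names near the 10 genes, and list genes given to complete a count. Some regions near the 10 genes are counted but not reported individually here. The 10 genes, the list of 42 and the motifs were chosen with earlier results of these data known.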

Additional observations from a re-analysis of the deposited data

How the results depend on the processing

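For the 14 results, 108 values were recomputed under an alternative: 85 kept their size within the limits used (1.5 times for counts and their difference, the Wilson interval for shares), 22 moved and 1 reversed. Requiring both replicates of a ChIP lowered the genes with a GR peak within 50 kb from 10 to 6, those with an E2A peak from 7 to 4, those where they met from 7 to 3, promoters with both from 6 to 3, GR regions meeting E2A to 33.3%, the 42 list genes with a GR peak from 30 to 17 and with an E2A peak from 20 to 8, and regions with an E-box from 31 to 16, since 17 of 37 regions remained. Of all GR regions, 17.1% met an E2A peak when both replicates were required. For the counts of genes, shares of all genes were not recomputed under the alternatives. With centres within 250 bp as the criterion, 41.7% of GR and 65.2% of E2A regions met, against 25.4% of all GR and 46.7% of all E2A regions. Left out in turn, the replicates gave 27.8 to 76.2% for GR regions, 69.6 to 94.7% for E2A regions, 5.5 to 14.5 peaks for GR minus E2A and 11 to 19 list genes with an E2A peak. In the central 200 bp, GRE matches fell from 12 to 5 regions, E-boxes to 18 and CRE, CARE, ERSE or UPRE from 6 to 3. A single allowed mismatch left 4 GRE regions, and the looser forms, chosen after seeing the data, gave 10 regions. Per 1000 peaks, GR minus E2A reversed from 10 to -1.04, and within 10 kb it was 3.5 peaks. Without Herpud1, also chosen after seeing the data, 50% of GR and 86.7% of E2A regions met.

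With samples paired by replicate number as a block, GR minus E2A stayed at 10 peaks (exact sign-flip p = 0.5, the smallest possible with 2 pairs), and the pairing by the numbers in the file names gave the same 10 and 0.5. The study describes both ChIPs as made from the same livers, but the sources do not say which samples share one. The lists carry no depth, so presence and absence of a peak cannot be graded. The cause of the other changes was not tested.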
